A study of Arabidopsis thaliana with 12 samples.

Results

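Pentatricopeptide repeat (PPR) proteins are nuclear-encoded proteins that bind RNA of chloroplasts and mitochondria in a sequence-specific manner. They act in the editing, splicing, end processing, stabilisation and translation of organelle transcripts, and land plants have a large family of them. Each protein carries a tandem array of degenerate repeats that each contact a base of the target RNA, so that single genes of the family often serve one or a few organelle transcripts.

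The 4 PPR loci described here are AT2G17670, AT5G15280, AT5G39980 and AT2G46050 of Arabidopsis thaliana, each with 1 probe that the probe annotation assigns to that gene alone, among 692 such single-gene probes and 3439 probes in all. They were chosen from measured values of the same arrays, so their differences between wounded and untreated plants are given as a description, without a test. In current annotations AT5G39980 encodes a chloroplast PPR protein, and AT5G15280 and AT2G46050 encode mitochondrial ones. No label or table used here named the organelle or the RNA target of any of the 4, so these locations come from general knowledge. None is given for AT2G17670. The RefSeq table held no gene symbol other than the locus for any of the 4, and no sequences were used.

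Total RNA came from wild-type plants of the Columbia 0 ecotype in both groups. The 6 wounded samples were from plants with cuts made in the leaves, compared 2 days after wounding, and the 6 untreated samples were from plants without wounding, for which the labels gave no harvest day; time of harvest and wounding therefore cannot be told apart. No tissue was stated. Of 11 marker genes of green leaf tissue, 6 had a single-gene probe, and these lay between the brightness percentiles 44.3 and 99.7 on the 11 arrays other than wounded 4, with the photosystem II gene PSBW at 99.7 on each of them. None of the listed root, pollen or seed markers had such a probe, so other tissues were not checked.

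The values were intensities on a linear scale with a mean between 0.983 and 1.09 per array, and between 4.77% and 5.9% of the probes on each array were listed at 0. Wounded 4 stood apart, correlating with the other arrays at r between 0.43 and 0.5 across probes, whereas the other 11 arrays correlated with each other at 0.876 to 0.985. A set of 5 pairs (untreated 1 and 2, 3 and 4, 5 and 6, and wounded 2 and 3, 5 and 6) were alike at r of 0.953 or more, and the labels did not say whether such arrays shared a plant or an extract. P-values given for other genes therefore measure only the spread between arrays, which may be technical. Unless stated otherwise, levels below are log2 intensities after quantile normalization, and every difference is wounded minus untreated. In bulk RNA, a lower share of cells that express a gene and less RNA per cell cannot be told apart.

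In wounded plants the mean signals of AT2G17670 and AT5G39980 were higher, and those of AT5G15280 and AT2G46050 were lower, than in untreated plants. The mean differences over the 12 arrays corresponded to 2.58-fold for AT2G17670, 1.74-fold for AT5G39980, 0.529-fold for AT5G15280 and 0.75-fold for AT2G46050. The groups overlapped for all 4 on the quantile-normalized scale. The probes also differed in brightness: AT2G17670 was dim, AT5G15280 and AT2G46050 lay near the middle and AT5G39980 was bright. These ranks describe each probe's place on the array and are no measure of transcript abundance between genes.

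**Figure D1:**
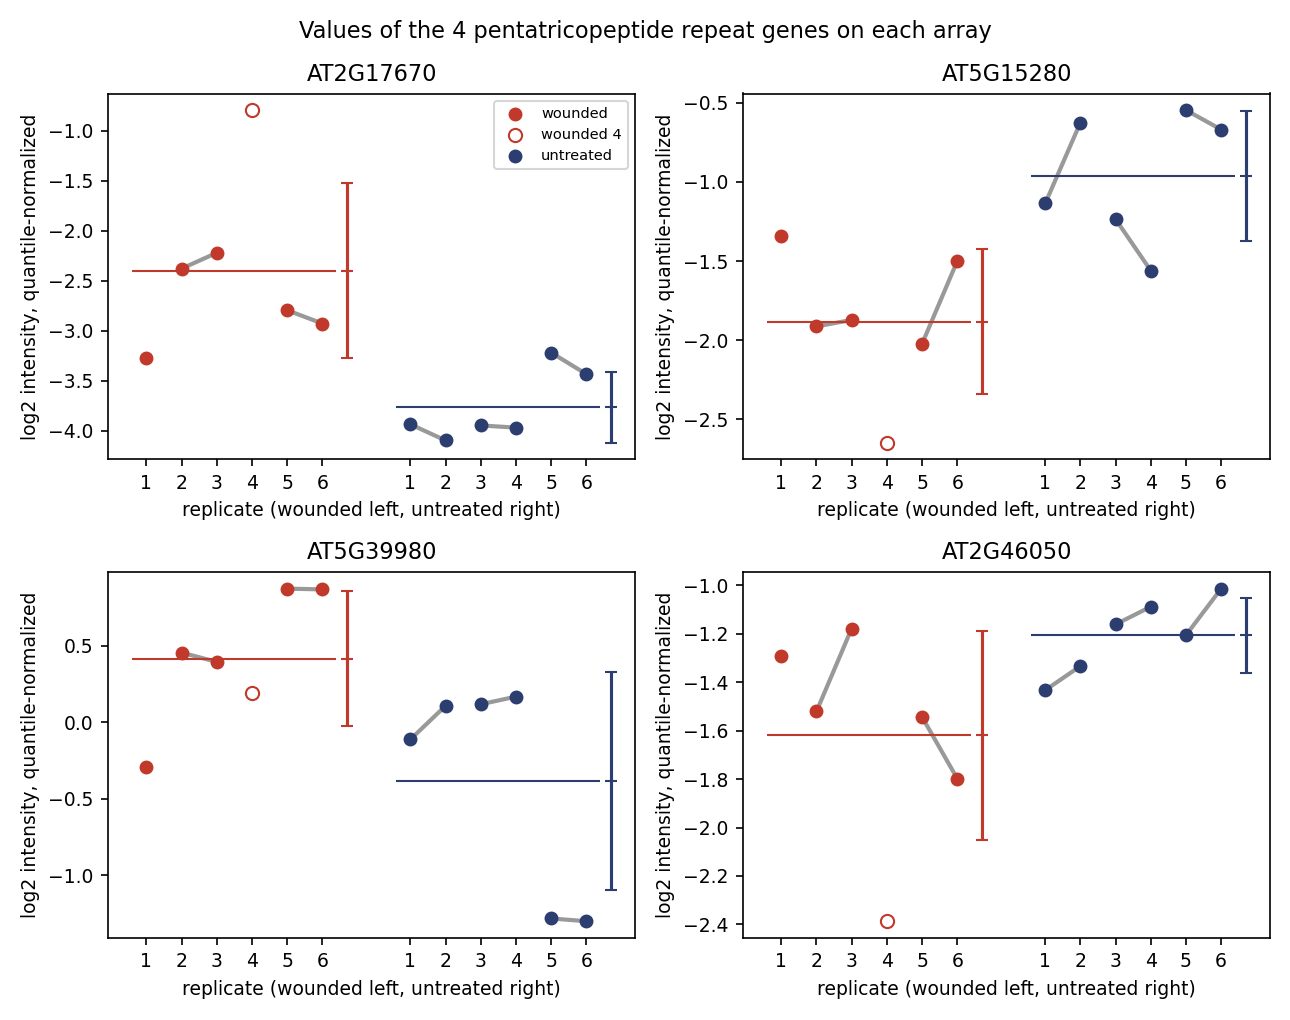
Quantile-normalized log2 intensity (vertical axis) of each PPR gene on the 6 wounded arrays (left, red, wounded 4 as an open circle) and the 6 untreated arrays (right, blue). Grey lines join the alike pairs, horizontal lines are group means and the bars beside them SD (n = 6); wounded 4 is the highest array for AT2G17670 and the lowest for AT5G15280 and AT2G46050, and untreated 5 and 6 lie near -1.3 for AT5G39980.

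AT2G17670 was the dimmest of the 4 probes. Its deposited intensity ranged between 0.0856 and 0.469 with a median of 0.147 in wounded plants, and between 0.0557 and 0.123 with a median of 0.0834 in untreated plants. Its brightness percentile among the probes of an array was 17.2 to 61 (median 24.8) on wounded arrays and 11 to 16.8 (median 11.9) on untreated arrays. By percentile the groups met without overlapping, with wounded 1 (17.2) next to untreated 5 (16.8), as they did with wounded plants higher for 1.48% of the tested probes. On the quantile-normalized scale wounded 1 lay below untreated 5. Only 11.9% of the tested probes had a lower mean log2 intensity over all arrays, so the gene was measured near the dim end. The highest wounded value came from wounded 4, which ranked the probe 1341 from the brightest, whereas the other 11 arrays ranked it between 2395 and 3063.

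On the log2 scale AT2G17670 averaged -2.40 ± 0.87 in wounded and -3.77 ± 0.35 in untreated plants (SD, n = 6 each), a difference of 1.37 ± 0.36 (SE). Without wounded 4 the wounded mean was -2.72 ± 0.42 (SD, n = 5) and the difference 1.05 ± 0.22 (SE), or 2.07-fold. The lowest wounded value was -3.27, on wounded 1, and the highest untreated values were -3.22 and -3.43, on untreated 5 and 6. Wounded 1 was therefore the only wounded array inside the untreated range. The gap within an alike pair was at most 0.216, while the 3 untreated pairs themselves spread over 0.691, with untreated 5 and 6 above the other 4 arrays. On the deposited scale the difference was 0.99 ± 0.36 (SE) over the 12 arrays and 0.68 ± 0.24 without wounded 4. The median log2 difference of all tested probes on that scale was -0.319 and -0.314. With an offset of 0.1 added before log2, AT2G17670 had a difference of 0.79 ± 0.25 over the 12 arrays. The values of 0.68 and 0.79 were smaller than 1.37 by over 1.5 times, but 0.68 also leaves out wounded 4.

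AT5G15280 showed the opposite direction. Its deposited intensity ranged between 0.168 and 0.378 (median 0.231) in wounded and between 0.335 and 0.837 (median 0.624) in untreated plants. The groups met at their edges: wounded 1 and 6, at 0.366 and 0.378, lay above untreated 4, at 0.335, and below the other untreated arrays. On the log2 scale the gene averaged -1.88 ± 0.46 in wounded and -0.96 ± 0.41 in untreated plants (SD, n = 6 each), a difference of -0.92 ± 0.25 (SE). Without wounded 4, the lowest array at -2.65, the difference was -0.77 ± 0.21.

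The brightness percentile of AT5G15280 ran between 23.9 and 48.5 (median 36.4) on wounded arrays and between 43.2 and 66.3 (median 58.1) on untreated arrays. This probe was the least steady within alike pairs among the 4, with a gap of up to 0.522, against a median of 0.299 over all probes for the largest gap within a pair. The 51 probes numbered around it had a median log2 difference of -0.245, in the direction of the gene itself. With such a trend along the probe numbers subtracted on every array, the difference was -0.62 ± 0.19 (SE). Around AT2G17670 and AT5G39980 the neighbouring probes had medians of 0.163 and 0.196, also in the direction of the gene, and with the trend removed the differences were 1.19 ± 0.39 and 0.60 ± 0.28. Around AT2G46050 the median was 0.161, opposite to the gene, which then had -0.59 ± 0.25.

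AT5G39980 was the brightest of the 4, at the percentiles 72.3 to 89.3 (median 84.1) on wounded and 48.8 to 80.5 (median 77.4) on untreated arrays. Its deposited intensity ranged between 0.778 and 1.91 (median 1.16) in wounded plants and between 0.434 and 1.34 (median 1.17) in untreated plants. The medians of the deposited values thus nearly coincided, the groups overlapped broadly, and the log2 difference on that scale was 0.50 ± 0.36 (SE). On that scale the median log2 difference of all tested probes was -0.319. After quantile normalization the medians of AT5G39980 were 0.42 in wounded and -0.0026 in untreated plants. The extremes came from the alike pairs numbered 5 and 6: wounded 5 and 6 both had 1.91, and untreated 5 and 6 had 0.434 and 0.438, against 1.16 to 1.34 on the other untreated arrays.

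The log2 level of AT5G39980 averaged 0.41 ± 0.44 in wounded and -0.38 ± 0.71 in untreated plants (SD, n = 6 each), a difference of 0.80 ± 0.32 (SE), and 0.84 ± 0.34 without wounded 4. Within alike pairs it differed by at most 0.22, while the 3 untreated pair means spread over 1.43, against a median of 0.475 over all probes. The untreated pair 5 and 6 had a mean of -1.29, and the pairs 1 and 2 and 3 and 4 had means of -0.0026 and 0.14. Leaving out untreated 5 and 6 brought the difference to 0.35 ± 0.25 (SE), while leaving out each of the other 4 pairs in turn gave 0.57 to 1.06. Wounded 1, at -0.29, lay below the other 4 untreated arrays.

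AT2G46050 lay near the middle of the brightness range, at the percentiles 27.6 to 52.1 (median 43.8) on wounded and 45.7 to 55.7 (median 51.7) on untreated arrays. Its deposited intensity ranged between 0.2 and 0.375 (median 0.321) in wounded and between 0.455 and 0.535 (median 0.481) in untreated plants. On the deposited scale these ranges did not overlap, for 1 of the 4 genes, which held in the same direction for 4.36% of all 3233 probes tested. Before scaling, median log2 intensities were -1.60 to -1.05 on the wounded arrays, against -1.10 to -0.77 on the untreated arrays. Wounded 5 and 6, at -1.05 and -1.07, lay inside the untreated range, and the other wounded arrays lay below it. The median difference of all probes was -0.319 on that scale.

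After quantile normalization the groups overlapped for AT2G46050. It averaged -1.62 ± 0.43 in wounded and -1.21 ± 0.16 in untreated plants (SD, n = 6 each), a difference of -0.41 ± 0.20 (SE). Wounded 4 was the lowest array at -2.39, and without it the difference was -0.26 ± 0.13, smaller by over 1.5 times. Wounded 1 and 3, at -1.29 and -1.18, lay inside the untreated range of -1.43 to -1.01. The untreated arrays were close to each other, with an SD below the median of 0.257 over all probes. Complete separation of the groups with wounded plants lower was found for 2.17% of probes over the 12 arrays and for 3.15% over the 11 arrays, and separation with wounded plants higher for 1.33% and 2.65%; 0 of the 4 genes had it on this scale.

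**Figure D2:**
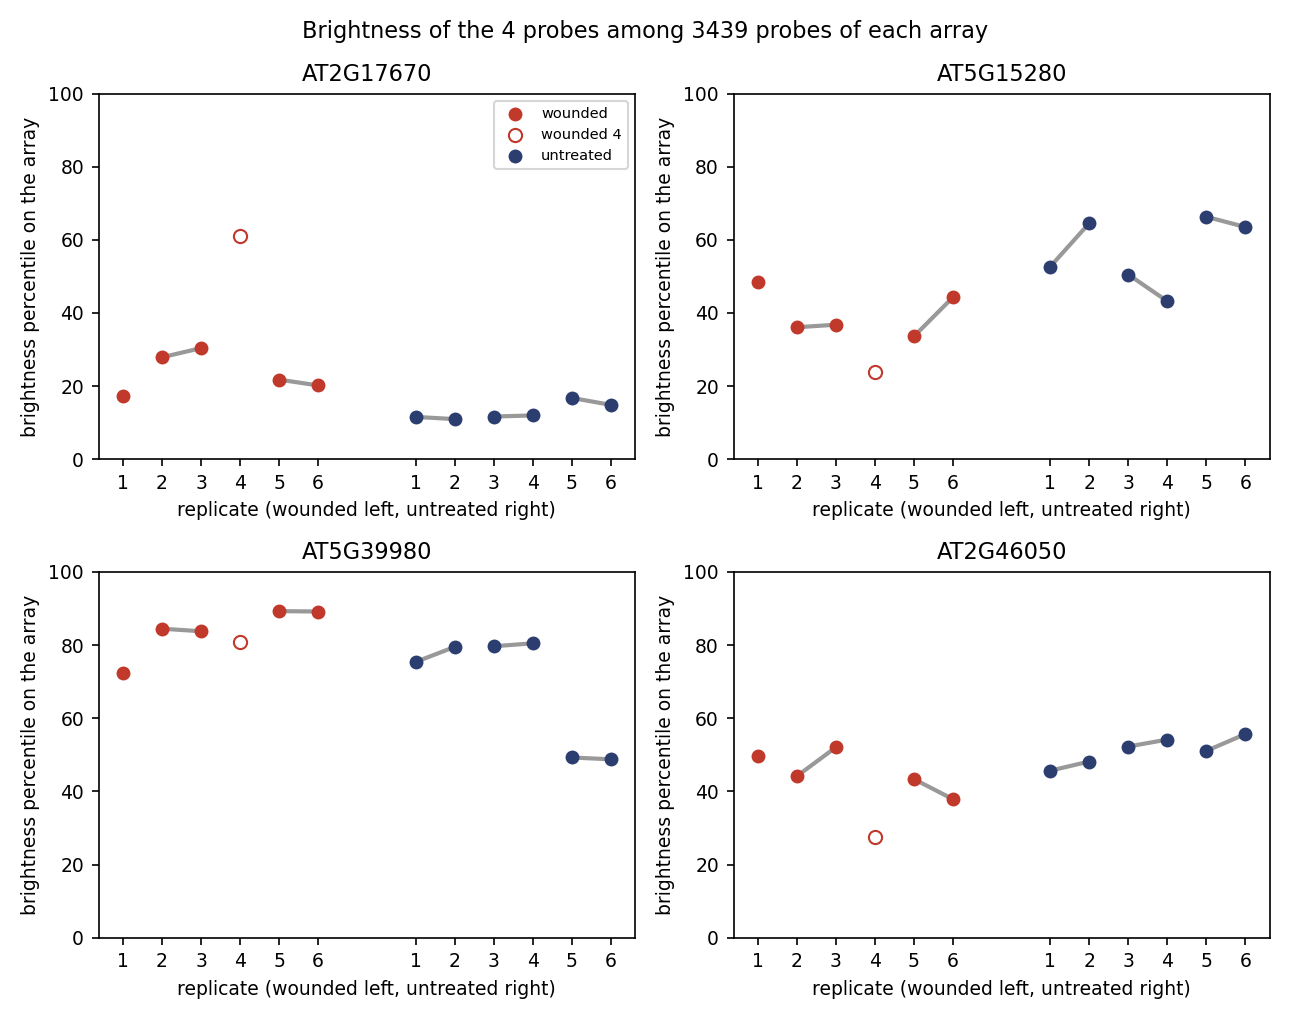
Brightness percentile (vertical axis, 0 to 100, high is bright) of each probe among the 3439 probes of the same array, for wounded arrays (left, red, wounded 4 open) and untreated arrays (right, blue), with alike pairs joined. AT2G17670 lies at 11 to 16.8 on the untreated arrays, and AT5G39980 drops to 49.3 and 48.8 on untreated 5 and 6.

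The 4 genes did not all vary in the same direction. Over the 11 arrays without wounded 4, AT5G15280 and AT5G39980 were related inversely (Pearson r = -0.793), as were AT5G39980 and AT2G46050 (r = -0.665) and AT2G17670 and AT5G15280 (r = -0.62). AT5G15280 and AT2G46050 had r = 0.408, AT2G17670 and AT5G39980 0.304, and AT2G17670 and AT2G46050 -0.346. With wounded 4 included, the last of these became -0.744, AT2G17670 and AT5G15280 had r = -0.782, and AT5G15280 and AT2G46050 0.683. AT5G15280 and AT5G39980 then had -0.676, AT5G39980 and AT2G46050 -0.452, and AT2G17670 and AT5G39980 0.259. These correlations follow in part from the group difference by which the genes were chosen, and the alike pairs make the arrays fewer than their number, so they are descriptions only.

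Among the 612 other single-gene probes with values on all of the 11 arrays, those most like each member were named by Pearson r. AT2G17670 was most like AT4G35660 (r = 0.962), AT3G26580 (0.931) and AT2G31800 (0.922). With wounded 4 added, AT4G35660 had r = -0.259, whereas AT3G26580 and AT2G31800 had 0.971 and 0.922. AT5G39980 was most like AT2G03140 (0.953), AT5G63490 (0.916) and AT4G08940 (0.895), which had 0.748, 0.56 and 0.765 over the 12 arrays.

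The closest profile to AT5G15280 was that of SIRB, the sirohydrochlorin ferrochelatase of sirohaem synthesis (r = 0.907 over 11 arrays and 0.79 over 12). AT1G79080, which encodes another PPR protein, followed at 0.887, but at 0.294 over 12 arrays, and the third was LAS, the GRAS-family regulator Lateral Suppressor, at 0.88 and 0.9. The AT1G79080 probe was dim, at median percentiles of 14 on wounded and 17.3 on untreated arrays. Its log2 values differed by up to 0.962 within an alike pair. AT2G46050 was most like CUTA, a copper-binding chloroplast protein gene (0.885), chr31, a chromatin remodelling factor gene (0.869), and AT5G47030, a subunit gene of the mitochondrial ATP synthase (0.838). Over the 12 arrays CUTA had r = -0.16, and chr31 and AT5G47030 had 0.957 and 0.948. Spearman's rho over the 11 arrays lay between 0.809 and 0.927 for all 12 of these relations. They were picked for a high r on the same arrays, so a high rho follows largely from that choice. An r above 0.8 was reached by 19 probes for AT2G17670, 12 for AT5G15280, 9 for AT5G39980 and 6 for AT2G46050. The most negative r was -0.959, -0.848, -0.939 and -0.897, in the same order of genes.

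To place the 4 genes in their family, a list of 56 other PPR genes was drawn up from general knowledge of the family, of which 4 had a single-gene probe. In limma, 0 of these 4 passed an adjusted p of 0.05 over the 12 arrays and 0 over the 11 arrays, and 0 had an unadjusted p under 0.05 over either set. The same threshold was passed by 0% of the 3233 probes tested over 12 arrays, where 376 (11.6%) had an unadjusted p under 0.05. Over the 11 arrays it was passed by 2.22% of the 3203 tested, where 667 (20.8%) had an unadjusted p under 0.05. With the alike pairs as a random block, 0 probes passed over either set. Unadjusted p-values under 0.05 then numbered 82 over 12 and 243 over 11 arrays. The unadjusted p-values of the 4 genes are from the fit without this block. OTP70, a factor for splicing of the chloroplast rpoC1 intron, had a difference of 0.56 ± 0.42 (SE; limma adjusted p = 0.562) and OTP85, an editing factor of the chloroplast ndhD transcript, -0.45 ± 0.29 (adjusted p = 0.525).

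Both of these moved toward 0 without wounded 4, to 0.17 ± 0.24 for OTP70 and -0.19 ± 0.16 for OTP85. CRR21, which edits another site of ndhD, had 0.028 ± 0.24 over 12 and -0.072 ± 0.23 over 11 arrays, and AT3G22690, known as YS1 and needed for editing of rpoB, -0.15 ± 0.24 and 0.013 ± 0.18. The median difference of the 4 genes was -0.0623 over 12 and -0.0293 over 11 arrays, beside -0.0246 and -0.0216 for all probes. A second list of 59 organelle RNA factors outside the PPR family, among them sigma factors, RNA polymerases, nucleases and editing cofactors, had 0 members with a single-gene probe.

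A further 13 PPR genes were recognised among the loci with single-gene probes after the table was read, by the family of the locus. In limma 0 of the 13 passed over the 12 or the 11 arrays, with smallest adjusted p-values of 0.435 and 0.0835, and an unadjusted p under 0.05 was found for 0 over the 12 and 3 over the 11 arrays, where 20.8% of all probes did. Over the 12 arrays 5 were higher and 8 lower in wounded plants, and over the 11 arrays 8 were higher and 5 lower. Their median difference was -0.124 over 12 and 0.0472 over 11 arrays, with members in both directions each time.

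Within these 13, picked after their values were seen, AT2G30100 had 0.42 ± 0.20 over 12 and 0.53 ± 0.15 over 11 arrays (SE; limma adjusted p = 0.435 and 0.0835), and its groups did not overlap without wounded 4, as for 2.65% of all probes in that direction. AT4G14050 had -0.25 ± 0.13 and -0.27 ± 0.09 (adjusted p = 0.475 and 0.138). Its wounded arrays, at 1.04 to 1.26, lay below its untreated arrays, at 1.28 to 1.56, a separation that 2.17% of all probes had over the 12 arrays. AT1G79080, the gene with a dim probe and a profile like that of AT5G15280 over the 11 arrays, had -0.52 ± 0.45 and -0.84 ± 0.36 (adjusted p = 0.612 and 0.211). AT3G22150, a factor for editing of atpF, had 0.16 ± 0.19 and 0.19 ± 0.18. Over the 11 arrays the differences of the 13 genes spread between -0.84 and 0.53, and those of the 4 chosen genes between -0.77 and 1.05. Over the 12 arrays the spreads were -0.59 to 0.88 and -0.92 to 1.37. The 0.88 was that of AT3G49740, above the 0.80 of AT5G39980, and it was 0.37 without wounded 4. Because the 4 were chosen for their differences, the comparison of spreads is a description only.

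**Figure D3:**
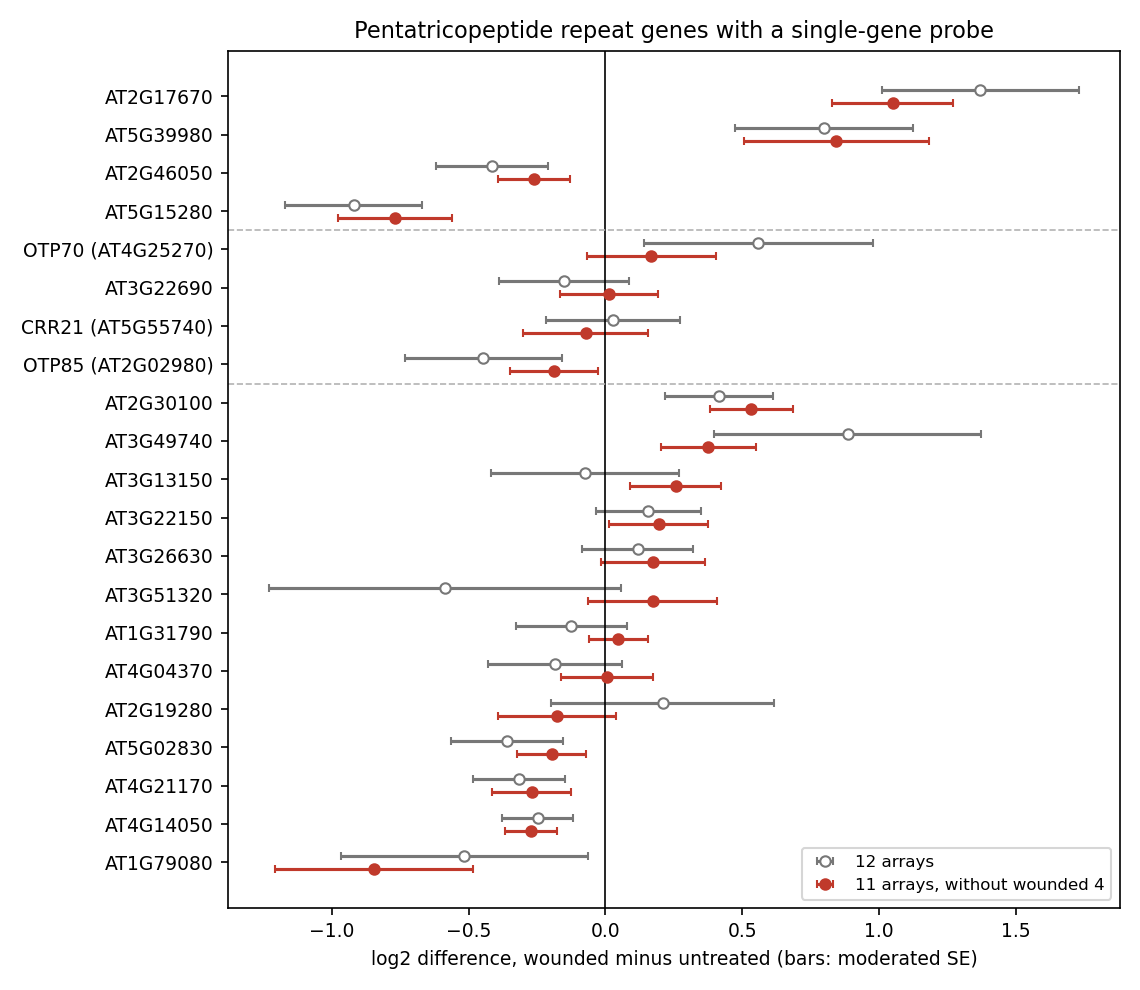
Log2 difference between wounded and untreated plants (horizontal axis) with moderated SE for the 21 PPR genes with a single-gene probe, over 12 arrays (open) and over 11 arrays without wounded 4 (red). The 4 genes chosen for this contrast are at the top, the 4 genes of the other PPR list in the middle and the further 13 at the bottom; AT2G17670 has the largest positive value on both sets of arrays.

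The directions of the 4 genes were the same under every alternative that gave a value, 30 settings for AT2G17670 and 31 for each of the others, including scaling, filters, blocks and left-out arrays; some of these, such as the replicate block, cannot move the difference. AT2G17670 ranged between 0.68 and 1.60, AT5G15280 between -1.20 and -0.62, AT5G39980 between 0.35 and 1.06, and AT2G46050 between -0.70 and -0.23. Since these genes were picked for their differences, a kept direction is no independent evidence for them. With the alike pairs as a random block, the SE over 12 arrays was 0.50 for AT2G17670, 0.57 for AT5G15280, 0.38 for AT5G39980 and 0.40 for AT2G46050.

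**Figure D4:**
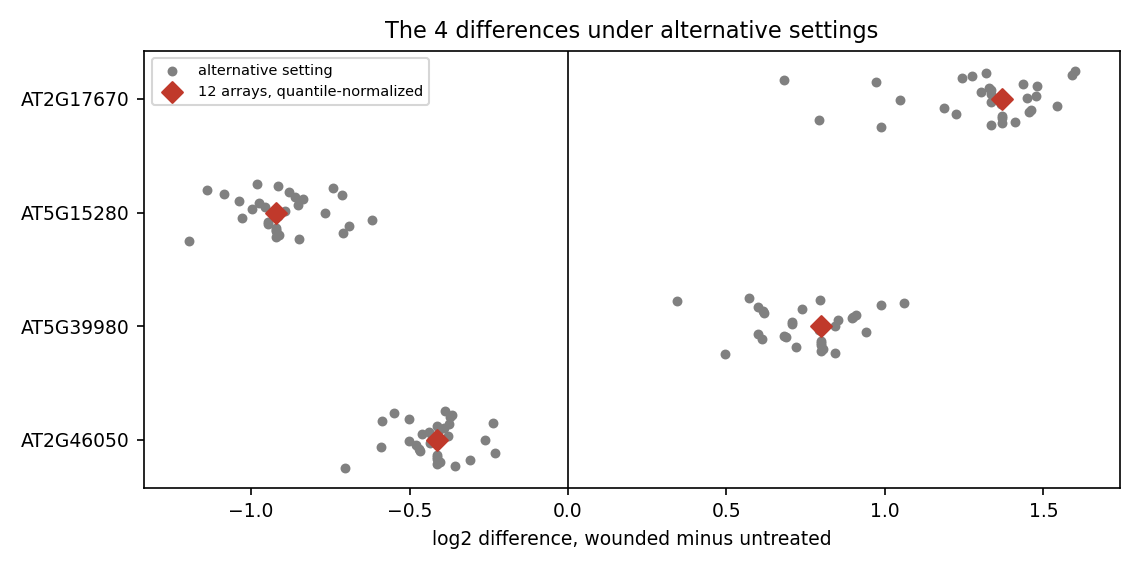
Log2 difference between wounded and untreated plants (horizontal axis) of each gene under the alternative settings (grey points) and over the 12 quantile-normalized arrays (red diamonds). All points of a gene lie on one side of 0, with AT2G17670 and AT5G39980 above it and AT5G15280 and AT2G46050 below it.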

How the data were processed

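RNA of 6 wounded and 6 untreated samples was measured on 1 array each, with groups and replicate numbers from the sample titles. The authors deposited linear intensity values; the sources used here do not name the array type, background correction or scaling, and precision is limited by the number of arrays. Probe names came from a platform annotation, updated through gene identifiers to the RefSeq table of TAIR10.1 (690 of 692 single-gene probes matched). Coordinates are left out because the build behind the table is unknown.

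Values of 0 were treated as missing, the others put on the log2 scale and quantile-normalized. Probes with at least 4 values per group entered a two-sided limma test (limma 3.58.1, R 4.3.3, linear model with empirical Bayes variances), Benjamini-Hochberg adjusted over all probes tested; the threshold was 0.05. The fit was tested on simulated data with independent arrays. These had no alike pairs and no array that stood apart like wounded 4, so the simulation does not cover those features. Figures used matplotlib 3.10.9 in Python 3.11.15. Deviations of same-numbered arrays from their group means were related at r between -0.342 and 0.0928. Wounded 4 entered the wounded mean, so these values cannot show whether the numbers pair the samples. The main fit did not use the numbers, and the replicate block was an alternative setting.

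Genes named are the 4 members, the 3 most alike single-gene probes of each, all measured genes of the other PPR list, and examples of the further list. The members and lists were chosen with earlier results of these data known.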

Additional observations from a re-analysis of the deposited data

Results flagged for a closer look

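Across the 21 PPR genes and both groups, 42 sets of arrays were examined for a single array far from the rest of its group, and 9 had one. Chance gives about 1 in 20 for independent arrays, which the alike pairs may not be, and the sets share their arrays. None of the 4 chosen genes was among them. The share of all probes with such an array is not given here. Neither the 9 nor their absence among the 4 genes can therefore be read as a result about PPR genes. Over all probes the median SD was 0.629 on wounded and 0.257 on untreated arrays. Wounded 4 was the far array in 8 of the 9. Its gap to the nearest other array, as a share of the range of the group, was 0.775 for AT3G51320, 0.773 for AT2G30100, 0.773 for AT3G13150, 0.732 for AT1G31790, 0.712 for AT5G02830 and 0.68 for AT3G22690, all as the lowest array, and 0.76 for AT3G49740 and 0.735 for AT2G19280 as the highest. Untreated 6 was the lowest array for AT5G02830, with a gap of 0.629.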

How the results depend on the processing

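With limma, 0 probes passed over the 12 arrays, and also 0 with the replicate block, median centring, the filters on dim or incomplete probes, an intensity trend, the trend along probe numbers removed, a threshold of 0.1, and the alike arrays averaged or as a random block (over 12 or 11 arrays). It was 7 with the values as deposited, 1 with zeros at the lowest value above 0, 1 with an offset of 0.1, and 179 with array weights, where wounded 4 had a weight of 0.0418. Leaving out 1 array or alike pair gave between 0 and 71, the highest without wounded 4, and 4 without wounded 5 and 6. Over the 11 arrays with the values as deposited it was 87 (6 higher, 81 lower), against 31 higher and 40 lower after quantile normalization. By its construction the replicate block cannot move the differences of the 4 genes, only their SE, which was 0.38 for AT2G17670. For AT2G17670 the deposited scale over 11 arrays gave a difference of 0.68. Array weights called 1 of the further PPR genes, AT2G30100 (adjusted p = 0.0408); no other setting called a gene of either PPR list. The cause of these changes was not tested. AT2G17670 had no value with dim probes left out. No count could be given for the organelle RNA factors outside the PPR family, without a single-gene probe. The 5 left-out pairs, the further list, and the block and deposited values over 11 arrays were added after seeing the data.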
